A study of Mus musculus with 6 samples.

Results

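Notch receptors, their ligands and the transcription factors they induce were followed gene by gene in differentiating mouse myoblasts, comparing control cells with cells given a short hairpin RNA (shRNA) against PRDM2. The members are Notch1, Notch2, Notch3, Dll1, Jag1, Jag2, Hes1, Hes6, Hey1 and Heyl, 10 of the 18192 genes that a probe set of the array names alone. A probe set is a group of short oligonucleotides on an Affymetrix array that report 1 transcript, and every probe set the platform annotation assigns to a member alone was kept, 19 of 45033. Of the 10 genes, 3 have 1 probe set, 5 have 2 and 2 have 3. All cells were C2C12, a mouse myoblast line, kept for 28 hours in medium with 2% horse serum, which starts differentiation. The 3 control arrays hold RNA of cells transfected with an shRNA against GFP, a protein foreign to the mouse, and the 3 knockdown arrays RNA of cells transfected with an shRNA against PRDM2. The labels do not say whether the transfection was transient, how many clones were pooled or which cultures were processed together. The replicates are called biological, with no statement of what separated them, so p-values measure the spread between these arrays.

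Notch proteins are cell surface receptors that are switched on by ligands on a neighbouring cell. A bound ligand of the Delta or Jagged type lets proteases cut the receptor, and the freed intracellular part enters the nucleus, joins the DNA-binding protein Rbpj and turns on genes of the Hes and Hey families, which are basic helix-loop-helix repressors. In muscle the pathway is known for holding myoblasts and satellite cells back from differentiation. Hes6 is the exception in the set, since it is known to oppose Hes1 and is usually counted as a gene that accompanies differentiation.

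The comparison reads as follows for the members. Heyl, a Notch target of the Hey family, had the largest difference of the 10 and lay lower on the knockdown arrays on all 3 of its probe sets. Notch1, Dll1, Jag1, Hes1, Hes6 and Hey1 lay on the higher side by their brightest probe set, by between 0.26 and 0.42 on the log2 scale, Notch2 lay on the lower side, and Notch3 and Jag2 were within 0.07 of 0. None of the 19 probe sets passed an adjusted p of 0.05 with all 6 arrays (limma, a linear model with moderated variances, Benjamini-Hochberg adjustment over all probe sets). The percentage called over all 45033 probe sets was 0 as well. At an unadjusted p under 0.05 there were 4 member probe sets, of Notch1, Hes6 and Heyl (2 of its 3), against 1326 of all probe sets, or 2.94%. Arrays with the same replicate number deviated together, and with that number as a block 10 of 19 did so, against 7.84% of all probe sets. The 95% intervals of the brightest probe sets of Notch2 (-0.84 to -0.07), Dll1 (0.10 to 0.65), Jag1 (0.0055 to 0.84), Hes1 (0.05 to 0.47) and Hes6 (0.0066 to 0.58) then left out 0, which the intervals without the block do not. The adjusted p of every member stayed at 0.63 or above in that fit (limma).

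Some facts about the arrays bear on every value below. Prdm2, the target, is given by 1 probe set only, and any other probe set of the gene is not shown here. On control arrays 1, 2 and 3 it read 57.5, 73.9 and 43.9 units. Knockdown arrays 1, 2 and 3 read 88.6, 65.5 and 45.4 units. Its messenger RNA by that probe set did not separate the groups (log2 difference 0.15, 95% interval -0.30 to 0.61, n = 3 per group). Directions therefore rest on the labels. The array labelled control replicate 2 was unlike the other controls. Over the 4548 brightest genes the median absolute deviation of its log2 difference from knockdown replicate 2 was 0.068, the lowest of all pairs of arrays, while it was 0.37 and 0.35 from control replicates 1 and 3. Nefl, a neurofilament gene, read 594, 2.05 and 330 units in the controls and at most 1.98 on the knockdown arrays. Among the members, control replicate 2 lay closer to the knockdown arrays' mean than to that of control replicates 1 and 3 in 13 of 19 probe sets, or 68.4%, against 65.6% of all probe sets. Whether this array holds RNA of control or of knockdown cells was not tested, and its place among the controls, which every difference over all 6 arrays takes over, rests on its label. Differences of the members are therefore given with and without that array, and the choice to single it out was made with its readings known.

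The muscle identity of the cells was checked on 10 skeletal muscle markers, all measured. Their intensity, summed after normalization between arrays, lay between 17590.6 and 20563.0 units on the control arrays and between 19758.0 and 20408.8 on the knockdown arrays. Sums of the other lists were taken in the same way, while units of single genes are the deposited ones. Of 8 markers of endothelium, a cell type known for Notch signalling, 6 read under 16 units on every array. Of 10 neuronal markers 3 did so (Syp, Snap25 and Rbfox3), and the list's sum was 1263.5, 580.9 and 821.3 units in control replicates 1, 2 and 3 against 479 to 589.4 on the knockdown arrays. The list did not move as one. With all 6 arrays no marker of any list passed an adjusted p of 0.05 (limma). Nefl is among the readings that set control replicate 2 apart. The adjusted p of markers in the fit without that array are therefore not independent of the choice to leave it out. Without control replicate 2, Nefl fell by 4.72 and the tubulin gene Tubb3 fell by 3.19 on the log2 scale (limma adjusted p = 0.0021 and 0.011). Stmn2, a regulator of microtubules, rose by 1.62 in the same fit (limma adjusted p = 0.014), at 164, 513 and 119 units in the controls and 445, 501 and 441 in the knockdown arrays, in replicate order. Of 8 fibroblast markers 2 were under 16 units on every array (Lum and Dpt), and sums spanned 4078.3 to 4721.5 units in the controls and 4021.0 to 4725.8 in the knockdown arrays. Most of that sum is Col3a1, a collagen gene, and beneath it Col1a1, another collagen gene, rose by 2.80 and Dcn, the proteoglycan decorin, fell by 2.74 without control replicate 2 (limma adjusted p = 0.019 and 0.011). Both read in control replicate 2 as in the knockdown arrays, at 849 units for Col1a1 against 99.9 and 90.8 in the other controls and 17.8 for Dcn against 176 and 178. In bulk RNA, fewer cells of a type and less RNA per cell cannot be told apart.

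The promoters of Dll1, Jag1 and Hes6 are shown because these members stood on the higher side and their windows hold the same E-box, the letters CAGCTG that the MyoD family of muscle factors is known to bind. They were thus picked by direction and motif together, and a part of the E-box in their differences was not tested. The windows are the 250 bases before the outermost start in the RefSeq promoter table (build GRCm38.p6), given 5' to 3' on the gene's strand, with the E-box in capitals. They lie at chr17:15376933-15377182 for Dll1, chr2:137116521-137116770 for Jag1 and chr1:91414039-91414288 for Hes6, all on the minus strand.
Dll1: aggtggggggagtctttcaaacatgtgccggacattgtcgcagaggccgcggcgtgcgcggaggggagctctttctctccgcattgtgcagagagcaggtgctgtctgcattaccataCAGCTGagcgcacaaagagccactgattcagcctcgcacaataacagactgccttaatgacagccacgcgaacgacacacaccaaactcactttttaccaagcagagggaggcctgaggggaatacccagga
Jag1: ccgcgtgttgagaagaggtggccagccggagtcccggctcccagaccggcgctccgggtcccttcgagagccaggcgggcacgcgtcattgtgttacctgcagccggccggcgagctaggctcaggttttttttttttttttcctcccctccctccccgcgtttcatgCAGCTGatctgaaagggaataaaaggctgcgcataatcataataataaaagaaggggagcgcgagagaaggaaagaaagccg
Hes6: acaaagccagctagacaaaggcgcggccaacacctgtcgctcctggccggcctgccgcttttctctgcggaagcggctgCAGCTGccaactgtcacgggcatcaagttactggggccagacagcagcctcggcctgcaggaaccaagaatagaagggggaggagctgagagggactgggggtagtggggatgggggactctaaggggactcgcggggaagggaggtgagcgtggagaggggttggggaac
The E-box starts 132 bases before the start of Dll1, 82 before that of Jag1 and 171 before that of Hes6. Windows were found for 7 of the 10 members (Notch1, Notch2, Notch3, Dll1, Jag1, Jag2 and Hes6), and 3 of the 7 hold this E-box, against 3443 of 27025 promoters (12.7%) searched the same way. Notch1 also stood on the higher side, and its window does not hold this E-box. Hes1 and Hey1, on that side too, had no window, and neither had Heyl. The windows of Notch3 and Jag2 overlap, at least in part, the span that the RefSeq gene table gives for the gene, and the other 5 of the 7 windows lie outside it. The core letters bound by Rbpj, TGGGAA, were in none of the 7 windows and in 21.5% of all promoters. The Notch targets Hes1, Hey1 and Heyl were not searched, so this absence says nothing about their promoters. The N-box of Hes proteins, CACNAG, was in the windows of Notch1, Notch2 and Notch3 and in 36.8% of all promoters. Each motif was searched on both strands, none overlaps another in these windows, and a match is a description of the letters and not of binding.

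Intensities below are the deposited values in array units, and differences are knockdown minus control on the scale of log2(intensity + 16) after quantile normalization. The offset of 16 makes a difference understate the change of a dim gene. Probe sets were not compared with each other in level, because each has its own probes.

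**Figure D1:**
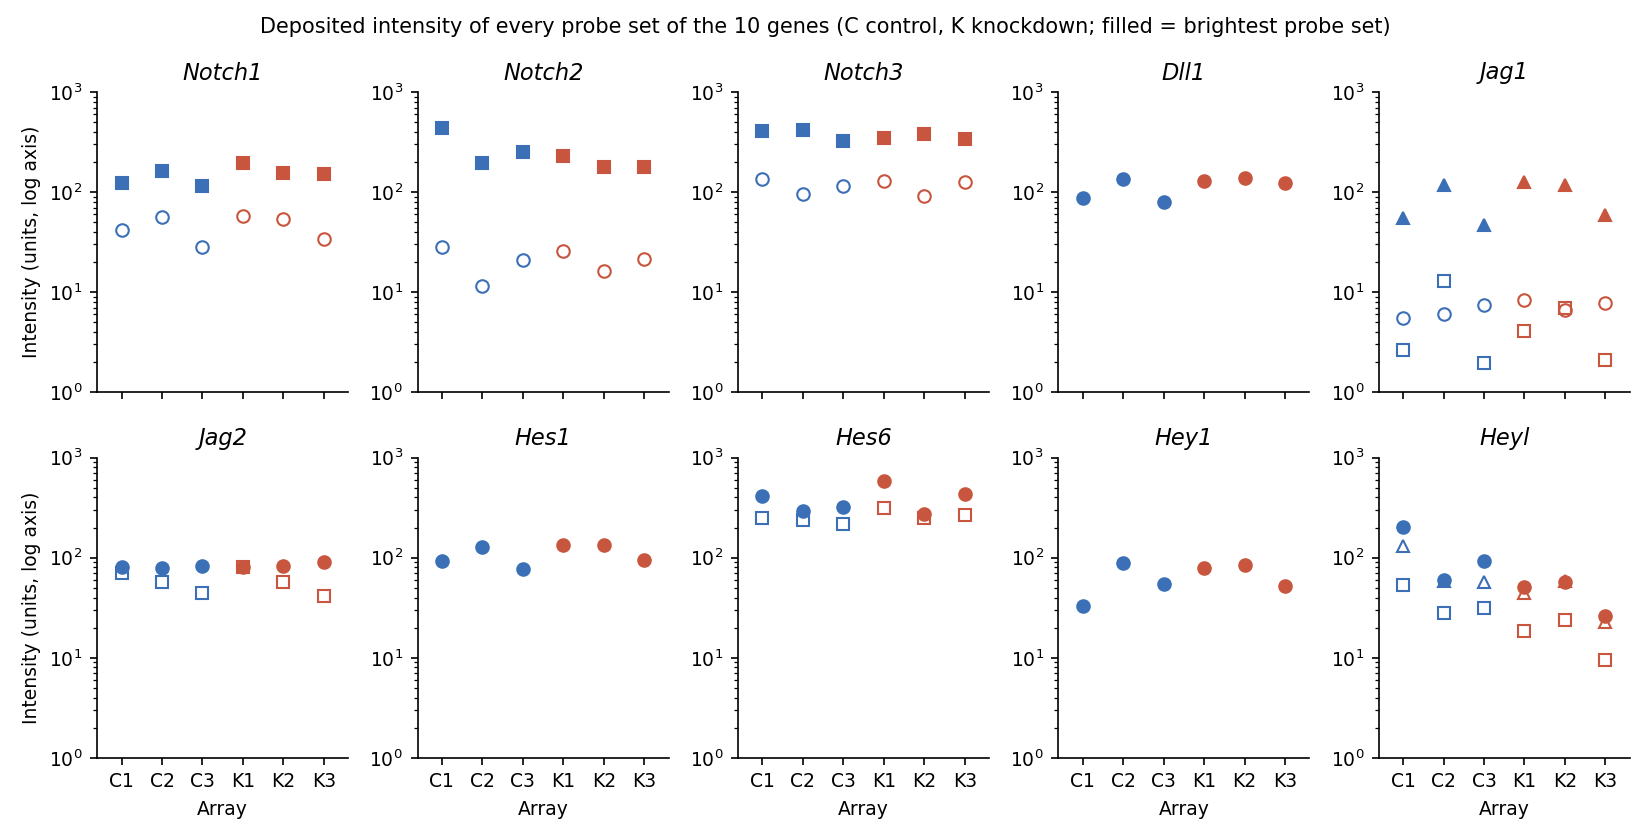
Deposited intensity (units, log axis) of all 19 probe sets on the 6 arrays, 1 panel per gene, with control arrays C1 to C3 in blue and knockdown arrays K1 to K3 in red; marker shapes separate the probe sets of a gene and the filled marker is the brightest. The 3 probe sets of Heyl are lowest on K3 and highest on C1, and C2 stands level with K2 in most panels.

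Among the receptors, Notch1 had an intensity of 123, 161 and 114 units on control arrays 1, 2 and 3, against 195, 156 and 153 on the knockdown arrays in the same order, by its brightest probe set (1418634_at). The highest control, replicate 2, lay between the knockdown arrays in units, and just under the lowest of them after normalization (7.42 against 7.43 log2 units). The log2 difference was 0.33 (95% interval 0.05 to 0.62; SE 0.12 over 3 arrays a group; limma adjusted p = 1.00). Without control replicate 2 it was 0.45 (SE 0.10, adjusted p = 0.15), with the 2 remaining controls below every knockdown array. The second probe set of Notch1, 1418633_at, read 28.4 to 56.1 units in the controls and 33.6 to 57.2 in the knockdown arrays, at a difference of 0.16 (SE 0.19), or 0.31 (SE 0.18) without control replicate 2.

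Notch2, another receptor of the family, pointed the other way on its brightest probe set (1455556_at). It read 432, 193 and 253 units on control arrays 1, 2 and 3, against 231, 180 and 176 on the knockdown arrays in the same order. Control replicate 2 lay within the knockdown range and control replicate 1 far above it. The log2 difference was -0.45 (SE 0.26, 95% interval -1.08 to 0.17, adjusted p = 1.00 with limma) and, without control replicate 2, -0.72 (SE 0.19, adjusted p = 0.24). Without control replicate 1 it was -0.17. The other probe set, 1451889_at, read only 11.6 to 28.5 units and did not share this, at 0.04 (SE 0.19) with all arrays and -0.14 (SE 0.14) without control replicate 2.

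Notch3, a receptor also known from vessel wall muscle, had groups that overlapped on both of its probe sets. Its brightest probe set, 1421965_s_at, read 407, 415 and 325 units in the controls and 350, 383 and 342 in the knockdown arrays, in replicate order. Its difference was -0.06 (SE 0.10, 95% interval -0.30 to 0.17), or -0.01 (SE 0.11) without control replicate 2. The second probe set, 1421964_at, gave 0.02 (SE 0.17, 95% interval -0.39 to 0.43), or -0.11 (SE 0.16) without control replicate 2. The interval of the second probe set spans values of either sign as large as the difference of Notch1, so it does not show that the level was the same.

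Of the ligands, Dll1 belongs to the Delta type. Its only probe set (1419204_at) read 87.9, 136 and 78.8 units on control arrays 1, 2 and 3, against 129, 138 and 123 on the knockdown arrays in the same order. Control replicates 1 and 3 lay below all knockdown arrays and control replicate 2 among them. This gave a log2 difference of 0.37 (SE 0.16, 95% interval -0.0082 to 0.75, adjusted p = 1.00 with limma) and, with control replicate 2 left out, 0.56 (SE 0.09, adjusted p = 0.069). That adjusted p was the smallest of the 19 probe sets in that fit.

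Jag1, the second ligand, varied more within the groups. Its brightest probe set (1434070_at) read 54.9, 118 and 46.9 units in the controls and 125, 117 and 59.1 in the knockdown arrays, in replicate order. Knockdown replicate 3 stood near the low controls, and control replicate 2 near the high knockdown arrays. Its log2 difference was 0.42 (SE 0.32, 95% interval -0.34 to 1.18) with all arrays and 0.73 (SE 0.24, adjusted p = 0.35 with limma) without control replicate 2. Leaving out control replicate 3 gave 0.23 and leaving out knockdown replicate 3 gave 0.67. The other 2 probe sets of Jag1 read under 16 units on every array, at differences of 0.07 (SE 0.07) and -0.08 (SE 0.20) with all arrays and 0.07 (SE 0.08) and 0.15 (SE 0.12) without control replicate 2, which say little at that level.

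Jag2 was level across the arrays on its brightest probe set (1426430_at), at 80.6, 79.4 and 83.2 units in the controls and 81.6, 82.4 and 90.2 in the knockdown arrays. The difference was 0.07 (SE 0.10, 95% interval -0.15 to 0.30), or 0.04 (SE 0.11) without control replicate 2. Its second probe set (1426431_at) gave 0.05 (SE 0.19), or 0.03 (SE 0.22) without that array, and was ordered by replicate number, at 71.1, 57.0 and 44.3 units in the controls numbered 1, 2 and 3 and 80.9, 57.3 and 41.4 in the knockdown arrays with those numbers.

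Among the target genes, Hes1, the classical Notch-induced repressor, read 93.4, 128 and 77.7 units on control arrays 1, 2 and 3, against 134, 133 and 94.5 on the knockdown arrays in the same order. The groups overlapped through control replicate 2 alone. Hes1 differed by 0.26 on the log2 scale (SE 0.16, 95% interval -0.11 to 0.64) and, without that array, by 0.41 (SE 0.13, adjusted p = 0.30 with limma). Without control replicate 3 the difference was 0.15.

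Hey1, a second repressor induced by Notch, read 33.0, 88.5 and 54.3 units in the controls and 78.2, 84.4 and 52.7 in the knockdown arrays, in replicate order. The highest value of all was a control, replicate 2, and the lowest was control replicate 1. The log2 difference was 0.30 (SE 0.26, 95% interval -0.32 to 0.92). It was 0.55 (SE 0.20, adjusted p = 0.42 with limma) without control replicate 2 but 0.04 without control replicate 1.

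Hes6 has a pair of probe sets that behaved alike in direction. On 1452021_a_at it read 248, 236 and 215 units on control arrays 1, 2 and 3, against 317, 251 and 265 on the knockdown arrays in the same order. All knockdown arrays lay above all controls. The log2 difference was 0.25 (SE 0.08, 95% interval 0.06 to 0.44, adjusted p = 1.00 with limma) and stayed at 0.25 (SE 0.10) without control replicate 2. The brighter probe set, 1436050_x_at, whose suffix marks probes that can also match other transcripts, read 413, 294 and 323 units in the controls and 578, 275 and 437 in the knockdown arrays. Its difference was 0.29 (SE 0.25), or 0.18 (SE 0.27) without control replicate 2. Knockdown replicate 2 was the lowest of its 6 values and knockdown replicate 1 the highest, and leaving them out in turn gave 0.58 and 0.11.

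Heyl, the third Hey family repressor, went against Hes1 and Hey1. Its brightest probe set (1419302_at) read 203, 60.0 and 93.1 units on control arrays 1, 2 and 3, against 51.1, 57.6 and 25.9 on the knockdown arrays in the same order. Every knockdown array lay below every control, though the arrays numbered 2 differed by only -0.0049 log2 units. The second probe set, 1419303_at, read 53.3, 28.0 and 31.4 units against 18.5, 24.0 and 9.51, again without overlap. The third, 1438886_at, read 131, 58.9 and 57.2 units against 44.3, 57.9 and 22.7, where knockdown replicate 2 overlapped the controls. The 3 probe sets thus share their order at the extremes, with control replicate 1 highest and knockdown replicate 3 lowest.

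The log2 differences of Heyl were -1.03 (SE 0.40, 95% interval -1.97 to -0.08), -0.68 (SE 0.23) and -0.73 (SE 0.33) on 1419302_at, 1419303_at and 1438886_at, each with an adjusted p of 1.00 (limma, n = 3 per group). Without control replicate 2 they were -1.39 (SE 0.32), -0.82 (SE 0.23) and -0.91 (SE 0.34), at adjusted p of 0.18, 0.27 and 0.44. Without control replicate 1 the differences were -0.62, -0.48 and -0.41, and without knockdown replicate 3 they were -0.80, -0.49 and -0.48. With both arrays numbered 2 left out and the replicate number as a block, Heyl fell by 1.54 (SE 0.11, adjusted p = 0.0072), 0.97 (SE 0.09, adjusted p = 0.015) and 1.11 (SE 0.11, adjusted p = 0.017) on the log2 scale in turn. The same 4 arrays without the block ended these calls, at adjusted p of 0.26, 0.28 and 0.41 (SE 0.35, 0.23 and 0.36), and so did the block with all 6 arrays, at adjusted p of 0.63 for each. The calls therefore rest on both choices together. They were the only member probe sets past the threshold there, 3 of 19, where 0.693% of all probe sets were called lower. Next came Dll1 at 0.52 (adjusted p = 0.074 with limma), Notch1 at 0.50 (adjusted p = 0.087), Notch2 at -0.66 (adjusted p = 0.088) and Hes6 at 0.46 (adjusted p = 0.091), each by its brightest probe set. The fit compares 2 controls with 2 knockdown arrays, its use here was decided with the readings of both arrays numbered 2 known, and the 3 probe sets report 1 gene. With the block it leaves 1 degree of freedom for the spread within a probe set. Its SE and p therefore rest largely on the variance that limma borrows across all probe sets, and little on the spread between these arrays. The neuronal markers Nefl and Tubb3 were also highest in control replicate 1 and next in control replicate 3, while Stmn2 of the same list was lowest in those arrays, and their part in the Heyl difference was not tested. The sum of the skeletal muscle markers was lowest in control replicate 1, at 17590.6 units. That list did not move as one either, since Ckm and Tnnc1 were lowest in that array and Myod1 and Cdh15 were highest in it. The part of the muscle markers was not tested.

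**Figure D2:**
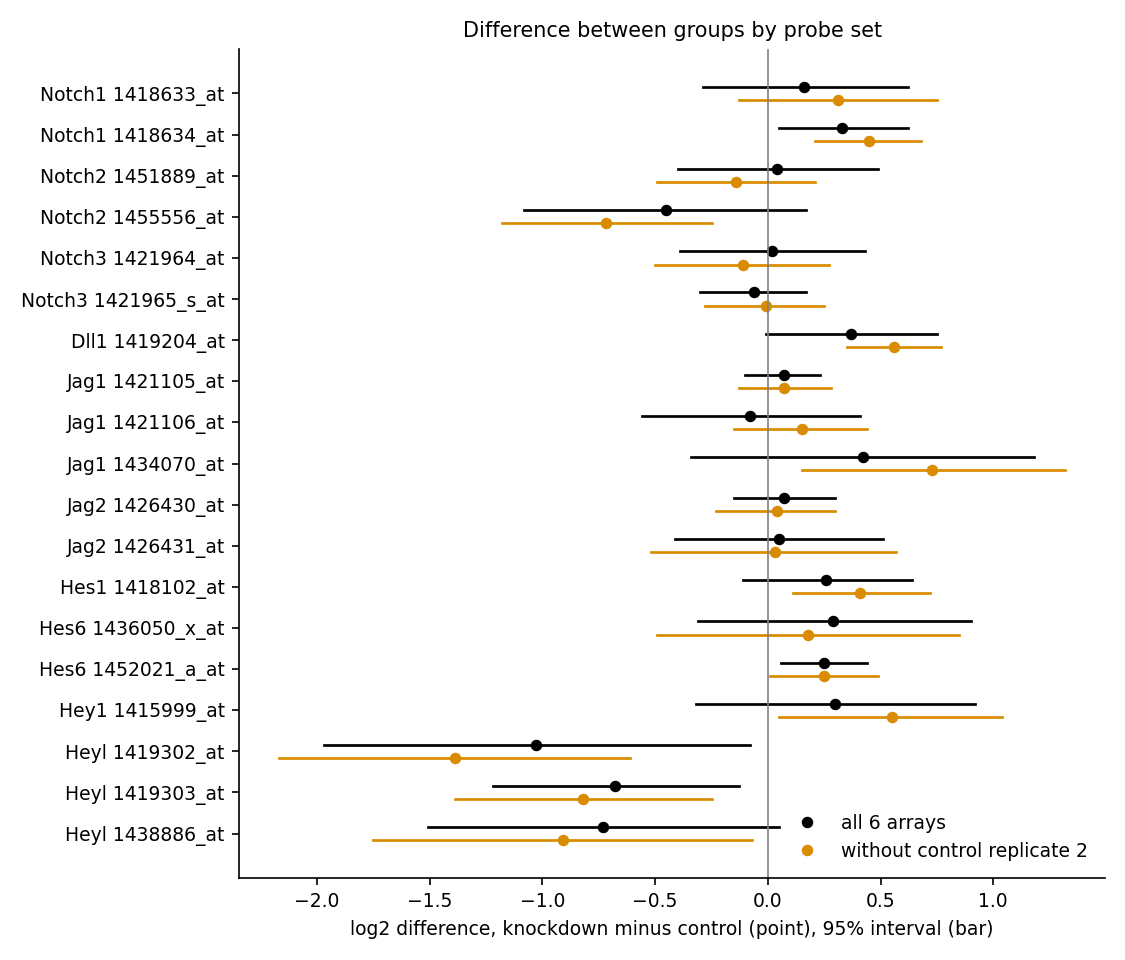
Log2 difference between knockdown and control (point) with its 95% interval (bar) for each of the 19 probe sets, with all 6 arrays in black and without control replicate 2 in orange. The 3 probe sets of Heyl lie farthest to the left, from -0.68 to -1.03 with all arrays, and leaving out control replicate 2 moves Dll1, Jag1, Hes1 and Hey1 to the right and Notch2 and Heyl to the left.

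Counts over the members put these values side by side. With all 6 arrays the groups did not overlap, on the normalised scale, in 2 member probe sets with the knockdown higher (1 each of Notch1 and Hes6), against 3.18% of all probe sets, and in 2 with the knockdown lower (both of Heyl), against 4.06%. Without control replicate 2 there were 6 such probe sets higher, of Notch1, Dll1, Jag1, Hes1, Hes6 and Hey1, and 4 lower, of Notch2 and Heyl, against 12.9% and 13.5% of all probe sets. Hey1 overlapped in units, at 54.3 in control replicate 3 against 52.7 in knockdown replicate 3, and barely separated after normalization (6.18 against 6.19). In the fit without control replicate 2, 0 of the 19 passed an adjusted p of 0.05, where 0.529% of all probe sets did, and 10 had an unadjusted p under 0.05, where 10.2% did. The median difference of the 19 was 0.07 with all arrays and 0.07 without control replicate 2.

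The members' differences varied with the replicate number. The arrays numbered 2 differed by between -0.07 and 0.09 log2 units in the brightest probe sets of all 10 genes. For number 1 the difference was 0.94 for Jag1, 0.90 for Hey1, 0.57 for Notch1, -0.89 for Notch2 and -1.67 for Heyl. For number 3 it was 0.29 for Jag1, 0.0086 for Hey1, 0.42 for Notch1, -0.44 for Notch2 and -1.41 for Heyl. Dll1 (0.45 and 0.59), Hes1 (0.42 and 0.28) and Hes6 (0.44 and 0.48) were alike in numbers 1 and 3, and Notch3 changed sign between them, from -0.24 to 0.13.

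**Figure D3:**
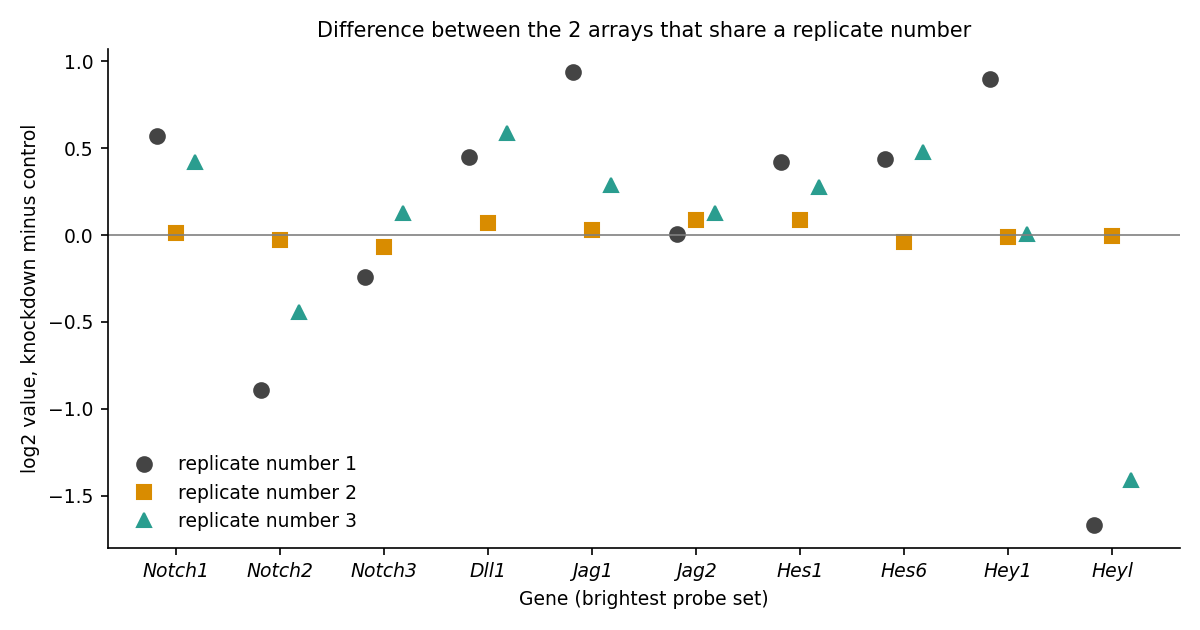
Log2 value of the knockdown array minus that of the control array with the same replicate number, for the brightest probe set of each gene; circles are number 1, squares number 2 and triangles number 3. The squares lie between -0.07 and 0.09, while Heyl stands at -1.67 and -1.41 in numbers 1 and 3.

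Genes whose pattern was most like that of Heyl, the member that varied most, were ranked by Pearson correlation with 1419302_at over the 6 arrays among 11441 genes at or above the median probe set. They were Szrd1 (0.9955), Ebf1 (0.9949), Med11 (0.9932), Smad1 (0.9913) and Anxa5 (0.9912), a description over arrays of which the pair numbered 2 is nearly alike. Ebf1, a transcription factor known from B cells and fat cell precursors, covered a similar range, at 321, 109 and 180 units in the controls and 94.7, 109 and 57.8 in the knockdown arrays. Szrd1 had a narrower range, from 120 to 165 units over the 6 arrays.

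Outside the members, 63 other genes of the pathway were measured of 69 listed, each by its brightest probe set. None passed an adjusted p of 0.05 in either direction with all arrays or without control replicate 2 (limma), and 1 and 9 of them had an unadjusted p under 0.05 in turn, beside 3.72% and 14% of all 18192 genes, so the first count lies under the background share and the second near it. Their median difference was -0.01, with 27 on the higher and 36 on the lower side, beside a median of -0.0033 over all 18192 genes and 0.28 over the 10 members by their brightest probe set. Over all 19 member probe sets the median was 0.07. Members and lists were chosen with earlier results of these data known, so these medians are a description only. The values of the genes named below are from the fit with all arrays unless said otherwise, and those without control replicate 2 follow at the end.

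Genes that modify or ripen the receptor numbered 6, with 1 higher and 5 lower and a median of -0.04. Lfng, a fringe glycosyltransferase that tunes which ligands a receptor answers, stood at -0.25 (SE 0.13), and Furin, the protease that cuts the receptor during its maturation, at 0.12 (SE 0.12). Of 7 genes of receptor cleavage 2 were higher and 5 lower, with a median of -0.02. The ligand-dependent protease Adam10 stood at 0.17 (SE 0.11) and the gamma-secretase subunit Aph1a at -0.12 (SE 0.08).

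The 8 other receptors and ligands split into 4 higher and 4 lower, at a median of -0.02. Dll3, a Delta protein that does not activate Notch on neighbours, stood at -0.19 (SE 0.12), and Dlk2, a Delta-like protein, at -0.12 (SE 0.25). Dll4, named after its values were seen, showed an order by number and not by group, at 21.0, 34.8 and 107 units in controls 1, 2 and 3 and 11.7, 43.4 and 112 in the knockdown arrays with those numbers. Its difference was -0.04 (SE 0.67).

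In the nucleus, the 8 activators had 2 higher and 6 lower and a median of -0.03. Kat2b, an acetyltransferase recruited by the Notch complex, had the lowest unadjusted p of the 63 genes with all arrays, at 0.037. It read 237, 151 and 201 units in the controls and 125, 144 and 137 in the knockdown arrays, so that every knockdown array lay below every control in units, but not after normalization (7.36 in knockdown replicate 3 against 7.33 in control replicate 2), and its difference was -0.44 (SE 0.17, adjusted p = 1.00 with limma) or -0.62 (SE 0.11, adjusted p = 0.10) without control replicate 2. Its relative Kat2a stood at -0.17 (SE 0.12). The 12 genes listed as repressors split into 6 and 6, at a median of -0.01, with the Groucho family members Tle5 at -0.40 (SE 0.32) and Tle2 at -0.29 (SE 0.17). Tle5 read 789 units in control replicate 1 and 296 to 513 on the other arrays.

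Regulators of ubiquitination and endocytosis numbered 15, with 7 higher and 8 lower and a median of -0.0048. Mib1, the ubiquitin ligase that ligand-bearing cells need to signal, read 114, 193 and 149 units in the controls and 213, 178 and 176 in the knockdown arrays, at 0.33 (SE 0.17). Numbl, related to the Notch inhibitor Numb, stood at 0.23 (SE 0.14). Of 7 other target genes 5 were higher and 2 lower, at a median of 0.05. Hes7, an oscillating gene of somite formation, stood at 0.21 (SE 0.10) between 11.8 and 21.7 units, around the offset of the scale. Nrarp, an inhibitor that Notch induces, stood at 0.17 (SE 0.27), and its highest values were on the arrays numbered 2, with 77.4 units in the control and 84.2 in the knockdown.

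Without control replicate 2 the differences of these genes kept their sign and most were larger. Most had been named for the size of their difference with all arrays, which the second fit largely shares, so a kept sign is no separate support. Over all 63 genes, 34 were on the higher side in that fit, against 27 with all arrays. Lfng stood at -0.33 (SE 0.13), Furin at 0.23 (SE 0.10), Adam10 at 0.27 (SE 0.09) and Aph1a at -0.14 (SE 0.10). Dll3 stood at -0.30 (SE 0.10), Dlk2 at -0.31 (SE 0.23), Dll4 at -0.20 (SE 0.76), Kat2a at -0.28 (SE 0.11), Tle5 at -0.77 (SE 0.17) and Tle2 at -0.35 (SE 0.20). Mib1 stood at 0.48 (SE 0.15), Numbl at 0.38 (SE 0.09), Hes7 at 0.17 (SE 0.11) and Nrarp at 0.40 (SE 0.24). After Kat2b, given above at an adjusted p of 0.10, the smallest adjusted p among the named genes was that of Tle5, at 0.15 (limma). Control replicate 1 also set the size of several, since without it Tle5 stood at -0.10, Mib1 at 0.14, Adam10 at 0.07, Kat2a at -0.05 and Nrarp at 0.01.

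**Figure D4:**
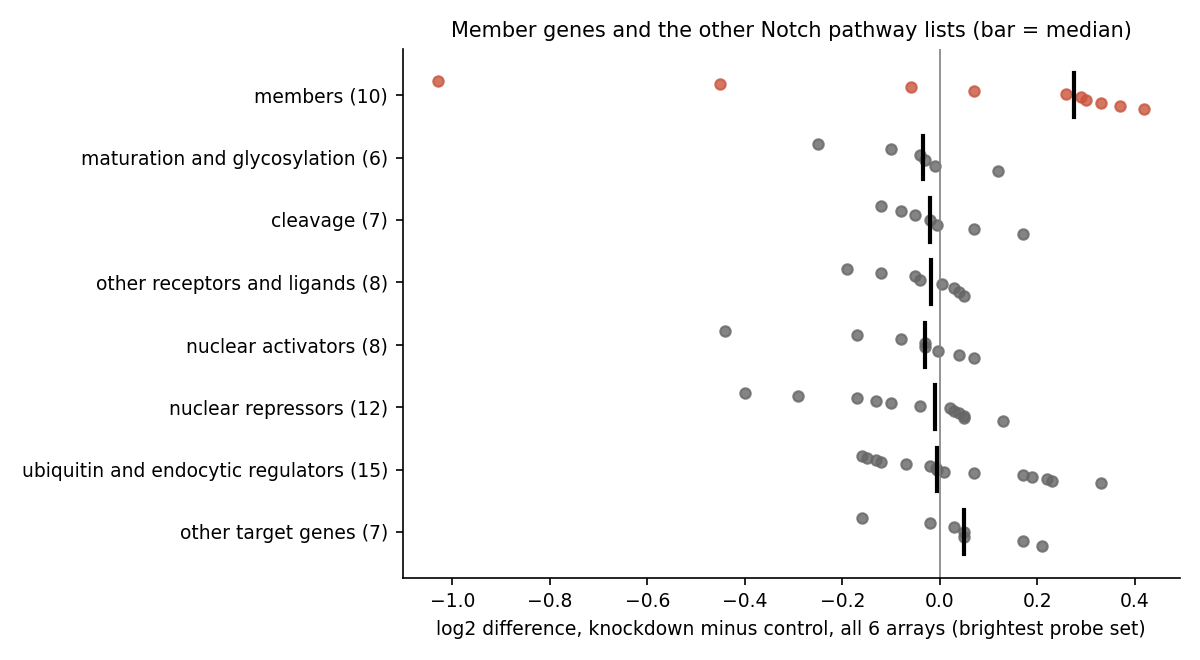
Log2 difference between knockdown and control with all 6 arrays for the 10 member genes (red) and 63 other pathway genes (grey), 1 point per gene by its brightest probe set, with the number of genes in brackets and a black bar at each median. The other lists have medians between -0.04 and 0.05, and the members span -1.03 to 0.42.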

How the data were processed

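Arrays were hybridised with biotin-labelled cRNA from Trizol-extracted RNA, 1 array per sample (per the labels' protocols). The authors deposited 1 linear intensity per probe set and array, for which the submitters' processing notes name GCOS and PLIER without a role; the normalization between arrays and the build are not given in the sources used here. Of 45101 probe sets, 64 controls were left out, and 4 of Gngt1 that hold that gene's Entrez number in 1 array, which leaves 45033. The platform annotation names 1 gene for 34941 of them, several for 932 and none here for 9160. Of the first, 34737 matched the GRCm38.p6 gene table by Entrez number and 0 symbols changed.

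Values were taken as log2(intensity + 16). Upper quartiles of the arrays differed by 0.15 log2 units, above the limit of 0.1, so arrays were quantile normalized. All probe sets were fitted with limma 3.58.1 in R 4.3.3 (lmFit, eBayes, two-sided, no block), adjusted over all 45033 by Benjamini-Hochberg at 0.05, and the script was tested on simulated data. Median array intensities were 10.7 to 11.4 units, and 3 arrays per group limit the precision. The brightest probe set is the one with the highest mean.

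Arrays with the same number deviated from their group means together (r of 0.336, 0.593 and 0.66 across 18192 genes), all above 0.1, so the fit with the replicate block was read as paired; the pairing comes from the data and not from the labels. Alternatives were other scalings, offsets of 1 and 64, leaving out dim probe sets, 1 probe set per gene, other variance settings, array weights, the replicate block, and leaving out arrays. The members and gene lists were chosen with earlier results of these data known. Named genes are the members, Prdm2, Nefl, in each list the 2 with the largest difference among those at or above the median probe set, any past the threshold, and 5 genes most like the most variable member. Of the 69 listed pathway genes, those without a probe set of their own were not analysed here.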

Additional observations from a re-analysis of the deposited data

How the results depend on the processing

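The 17 alternatives were compared with the fit of all 6 arrays. The count of probe sets called was 0 to 238 over the fits that each leave out 1 array (238 without control replicate 2 and 0 in the other 5), 57 without both arrays numbered 2, and 717 when the replicate block was added to that. Member probe sets called were 3 and member genes called by their brightest probe set 1 (Heyl) in that last fit, and 0 in the others; other pathway genes called were 0 throughout. With the replicate block and all 6 arrays no call changed. Of the 19 member probe sets, 12 kept their sign in every alternative, among them all of Dll1, Hes1, Hes6, Hey1 and Heyl and the brightest of Notch1, Notch2 and Jag1. Signs turned as follows. With array weights Notch2 1451889_at was at -0.0004, Notch3 1421965_s_at at 0.0024 and Jag1 1421106_at at 0.02. Notch3 1421964_at was at -0.0017 with the deposited scaling and -0.0035 with median centring. Without both arrays numbered 2, with the replicate block or not, Notch2 1451889_at was at -0.04 and Jag1 1421106_at at 0.05. Over the fits that leave out 1 array, Notch1 1418633_at ranged from -0.0022 to 0.31, Notch2 1451889_at from -0.14 to 0.21, Notch3 1421964_at from -0.11 to 0.17, Notch3 1421965_s_at from -0.13 to 0.0052, Jag1 1421106_at from -0.20 to 0.15, Jag2 1426430_at from -0.0035 to 0.12, Jag2 1426431_at from -0.13 to 0.20, Dlk2 from -0.31 to 0.12 and Nrarp from -0.06 to 0.40. The cause was not tested. Over all the alternatives Heyl 1419302_at ranged from -1.54, without both arrays numbered 2, to -0.62, without control replicate 1. Probe sets near 16 units, such as 2 of Jag1, lie at the floor of the scale, which limits what their differences can show.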
